A study of Mus musculus with 15 samples.

Results

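The glucocorticoid receptor gene Nr3c1 and 8 genes known to respond to glucocorticoids, Fkbp5, Tsc22d3, Klf9, Zbtb16, Cebpd, Sgk1, Dusp1 and Errfi1, were examined as a listed set, 9 of the 34554 genes and added sequences measured. The data were RNA sequencing libraries from mouse pancreatic ductal organoids, which are hollow epithelial cultures grown in Matrigel from normal pancreas. Of the 5 organoid lines, 3 carried every allele needed to switch on the glycan CA19-9 with doxycycline (A217, A220 and A225, labelled CA19-9 inducible) and 2 lacked a required allele (A218 and A223, labelled as negative). The labels name neither the missing allele nor the animal behind each line, so the p-values speak only for the variation among the 5 lines. Doxycycline, an antibiotic used here as the inducer, was given at 1 µg/ml for 0, 4 or 24 h to every line, which gave 15 libraries in 6 groups. All groups shared the medium, which held B27 supplement, the growth factors EGF and FGF10, the hormone gastrin, the niche factors R-spondin 1 and Noggin, the TGF-β receptor inhibitor A 83-01, N-acetylcysteine and nicotinamide. It was renewed 24 h before harvest in every culture, and all cultures were harvested together. No glucocorticoid was given as a treatment. The study thus offers the genes' levels in duct cells, their change with doxycycline in lines that can and cannot make the glycan, and the difference between these lines.

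Glucocorticoids enter cells by diffusion and bind their receptor, which waits in the cytoplasm in a complex with HSP90 and co-chaperones. The bound receptor moves to the nucleus, where it activates genes through palindromic DNA elements and restrains inflammatory genes, largely by interfering with other transcription factors. The genes of the set are textbook targets in many tissues, but most of them also answer other signals: Sgk1 to growth factors and osmotic stress, Dusp1 and Errfi1 to the EGF receptor and MAP kinase pathways. B27, present in all groups, is a supplement whose usual formula contains corticosterone, the main glucocorticoid of mice; its content here is not given.

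The promoters of the 3 genes whose changes are described most fully below are shown first, because they differ in the elements they hold. RefSeq promoters (GRCm38.p6, 250 bases before to 50 after a start site) were listed for 6 of the 9 genes, 14 promoters in all. For Sgk1, 2 promoters are shown, both on the plus strand. The first, chr10:21993640-21993939, ends just after the start of transcript Sgk1-202. The second, chr10:21994416-21994715, belongs to Sgk1-201, the main transcript in these libraries. In the first, capitals mark the 15-base glucocorticoid response element in its strict palindromic form, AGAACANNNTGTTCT, and 1 further arm of it on the other strand, TGTTCT.
Sgk1-202 promoter: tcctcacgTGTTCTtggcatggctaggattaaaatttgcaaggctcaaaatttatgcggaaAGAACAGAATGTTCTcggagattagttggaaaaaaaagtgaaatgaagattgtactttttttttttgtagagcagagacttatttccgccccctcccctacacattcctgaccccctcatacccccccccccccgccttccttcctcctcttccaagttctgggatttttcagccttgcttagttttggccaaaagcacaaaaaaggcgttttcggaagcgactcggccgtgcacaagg
Sgk1-201 promoter: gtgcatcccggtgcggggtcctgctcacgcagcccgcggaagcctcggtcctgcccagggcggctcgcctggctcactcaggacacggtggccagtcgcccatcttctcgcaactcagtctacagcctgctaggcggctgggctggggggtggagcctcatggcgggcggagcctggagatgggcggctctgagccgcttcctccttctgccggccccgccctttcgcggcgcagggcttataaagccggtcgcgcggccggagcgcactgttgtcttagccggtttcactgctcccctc
The Dusp1 promoter, chr17:26508423-26508722 on the minus strand, and the Errfi1-201 promoter, chr4:150854820-150855119 on the plus strand, hold no strict palindrome and no arm of it; capitals mark the cAMP response element TGACGTCA, a site for the CREB and ATF factors.
Dusp1 promoter: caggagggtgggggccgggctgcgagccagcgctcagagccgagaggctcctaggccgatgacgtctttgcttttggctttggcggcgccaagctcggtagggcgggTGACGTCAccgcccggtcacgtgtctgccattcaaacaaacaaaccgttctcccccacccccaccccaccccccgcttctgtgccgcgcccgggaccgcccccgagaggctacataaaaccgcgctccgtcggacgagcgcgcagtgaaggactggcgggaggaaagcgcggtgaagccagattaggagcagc
Errfi1-201 promoter: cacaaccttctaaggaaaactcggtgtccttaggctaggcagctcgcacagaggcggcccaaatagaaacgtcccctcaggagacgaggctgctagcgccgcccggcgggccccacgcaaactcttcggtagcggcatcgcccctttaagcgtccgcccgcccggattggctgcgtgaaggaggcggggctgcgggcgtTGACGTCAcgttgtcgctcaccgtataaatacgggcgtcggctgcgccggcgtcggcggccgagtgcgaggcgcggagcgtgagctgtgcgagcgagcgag
Both strands were searched, and the palindromes read the same on each. The strict element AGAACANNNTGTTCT occurred in 3 of 32851 promoters of this length (0.00913%), of which 1 was that of Sgk1-202. It lay at chr10:21993701-21993715 with the letters AGAACAGAATGTTCT, 189 bases before the start of Sgk1-202 and 965 bases before that of Sgk1-201. The single arm AGAACA, which the full element contains on both strands, was in 19.0% of all promoters, and TGACGTCA was in 1.79%. The cAMP element lay 143 bases before the start of Dusp1 and 51 bases before that of Errfi1-201. Among the promoters not shown, none held the strict element or TGACGTCA, and those of Fkbp5 and Klf9 held no arm. A single arm lay in the Sgk1-204 promoter and in that shared by Sgk1-203 and Sgk1-212. Another lay in the Tsc22d3 promoter at chrX:140600473-140600772. A match describes the letters of these windows and says nothing of binding, and elements farther away were not searched.

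Levels between genes were compared in TPM, which accounts for transcript length. Errfi1 was the most abundant with a mean of 81.5 TPM over the 15 libraries, followed by Fkbp5 with 50.2, Nr3c1 with 31.5, Tsc22d3 with 22.6, Dusp1 with 16.7, Sgk1 with 15.3, Klf9 with 6.25 and Cebpd with 3.56 TPM. Zbtb16, at 0.0638 TPM, was barely detected. Dusp1 and Sgk1 were neighbours whose ranges overlapped almost fully, 10.5 to 27.2 and 8.12 to 33.6 TPM, and the order of these 2 changed with time. All other levels below are CPM, counts scaled to library size with TMM factors, which compare libraries for 1 gene.

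The cultures read as duct epithelium. Of 12 duct markers 11 reached 1 TPM in every library (keratins 8, 18, 19 and 7 among them), Cftr being the exception, while 7 of 8 acinar, all 6 endocrine, all 7 mesenchymal, 4 of 6 immune and 3 of 4 endothelial markers stayed below 1 TPM in every library, with sums of at most 3.3, 0.267, 2.51, 3.27 and 5.04 TPM. The summed duct markers moved with time: in inducible lines they were 10500 to 13100 TPM at 0 h, 10500 to 12200 TPM at 4 h and 13800 to 15800 TPM at 24 h, and in negative lines 11700 to 11800, 9840 to 11300 and 15700 to 16400 TPM at the same times. Over both genotypes 11 of 12 had a log2 change below 0 at 4 h (median -0.15; 1 called lower, and 6 with the block), and 9 of 12 above 0 at 24 h (median 0.18; 2 called higher and 1 lower, and 7 and 3 with the block). Of all features 0.383% were called lower at 4 h, and 4.92% with the block. At 24 h 10.9% of features were called higher and 7.83% lower, and 20.7% and 15.4% with the block. The part of these shifts in the changes below was not tested, and in bulk RNA a change in the share of cells that express a gene cannot be told from a change per cell. Library totals were 47915632 to 59411540 estimated counts.

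**Figure D1:**
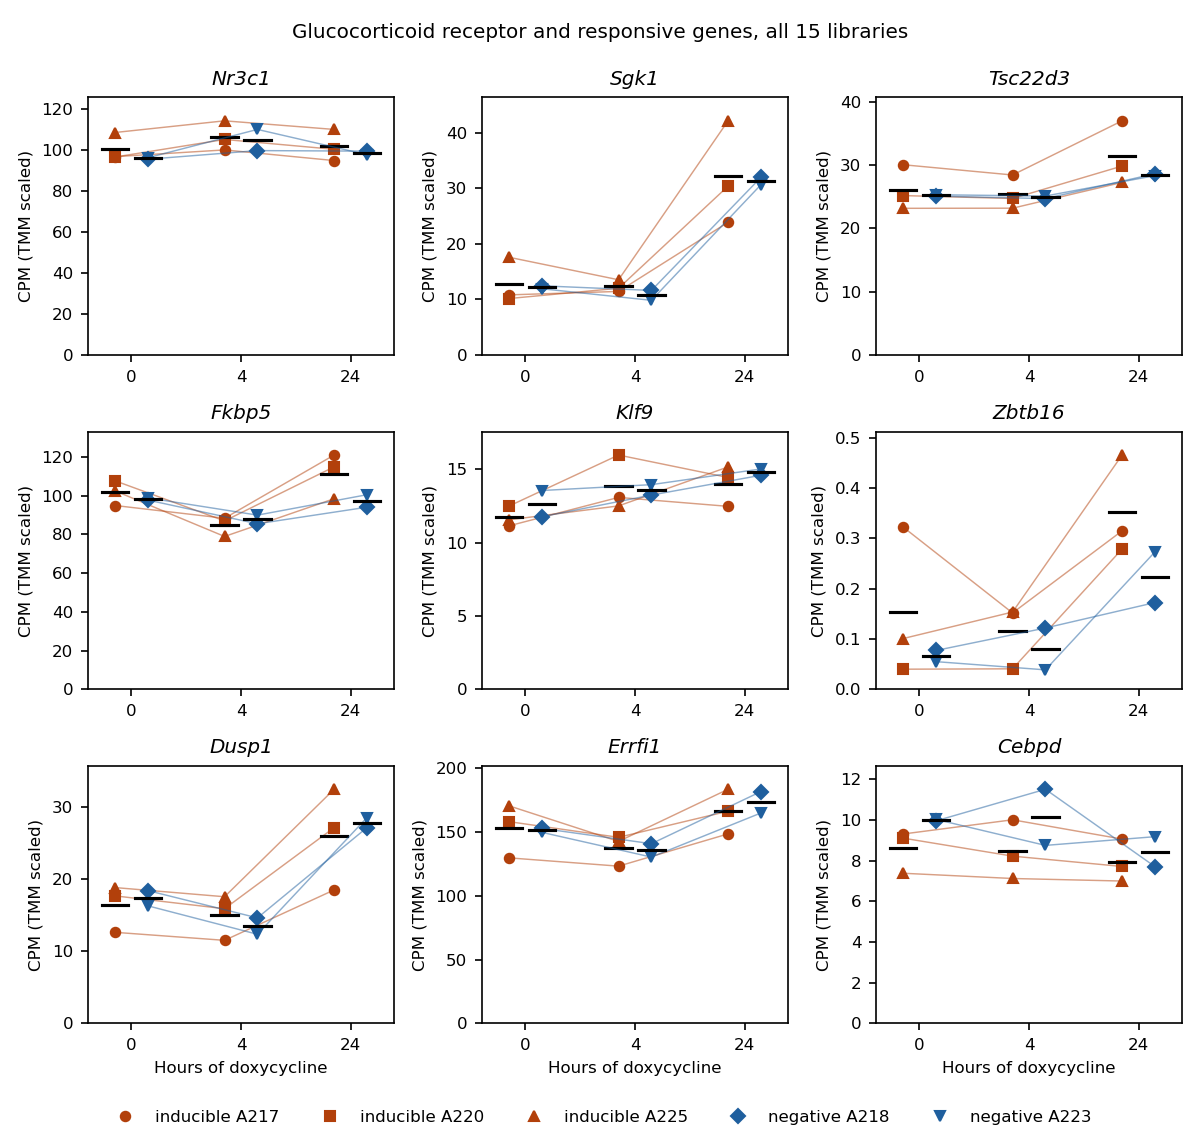
Level of each of the 9 genes in CPM (y axis, from 0) against hours of doxycycline (x axis), with inducible lines left and negative lines right at each time; points are libraries, thin lines join the same organoid line and black bars are group means. Sgk1 and Dusp1 stand higher at 24 h in all 5 lines, Fkbp5 and Errfi1 dip at 4 h in all 5, and Nr3c1 stays between 94.9 and 114 CPM.

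The receptor gene was not called at either time. Nr3c1 (ENSMUSG00000024431.15, chromosome 18, 39410545 to 39519421, minus strand, GRCm38) averaged 107 ± 7.22 CPM at 4 h in inducible lines, against 101 ± 6.86 CPM at 0 h (SD, n = 3 each), and 105 ± 7.31 CPM at 4 h in negative lines, against 95.9 ± 0.516 CPM at 0 h (SD, n = 2 each). At 24 h the means were 102 ± 7.71 CPM in inducible and 98.6 ± 1.23 CPM in negative lines. All 15 libraries lay between 94.9 and 114 CPM, and the ranges of the 3 times overlapped. Each line was slightly higher at 4 h than at 0 h, by ratios of 1.03 to 1.14. The log2 change averaged over both genotypes was 0.11 ± 0.05 (SE) at 4 h, with an adjusted p of 0.488 in edgeR's quasi-likelihood test and of 0.0533 with the line as a block, and 0.03 ± 0.05 at 24 h (adjusted p = 0.766). The direction at 24 h turned with the unit, since 4 of 5 lines were higher than at 0 h in CPM and 0 of 5 in TPM. Among its transcripts Nr3c1-204 held a median of 61.4% of the estimated counts.

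Fkbp5 (ENSMUSG00000024222.17, chromosome 17, 28399094 to 28517527, minus strand) encodes FKBP51, a co-chaperone that lowers the receptor's affinity for hormone and is itself induced by it. It was the gene of the set with the clearest dip at 4 h. In inducible lines Fkbp5 had 88.3, 87.0 and 78.9 CPM at 4 h, against 94.9, 108 and 103 CPM at 0 h, in the order A217, A220 and A225. In negative lines it had 85.5 and 90.0 CPM at 4 h, against 97.7 and 98.9 CPM at 0 h, in A218 and A223. Every 4 h library was below every 0 h library. At 24 h the levels were 121, 115 and 98.4 CPM in inducible and 94.1 and 101 CPM in negative lines, all above every 4 h library but overlapping those at 0 h. The change at 4 h was -0.21 ± 0.06 on the log2 scale over both genotypes and was not called (adjusted p = 0.119), but it was called with the line as a block (adjusted p = 0.0112). Between 4 and 24 h Fkbp5 rose by a log2 value of 0.27 ± 0.06 (adjusted p = 0.00741), and 24 h differed from 0 h by 0.06 ± 0.06 (adjusted p = 0.53). The 24 h to 4 h comparison was added after the dip had been seen, and it shares its 4 h libraries with the 4 h response. For Fkbp5 and the genes below, the share of all features whose time ranges separate as fully was not counted.

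Tsc22d3, Klf9, Zbtb16 and Cebpd encode transcription regulators, and in these the differences were small or rested on few counts. Tsc22d3 (ENSMUSG00000031431.13, chromosome X, 140539528 to 140600659, minus strand) encodes GILZ, an anti-inflammatory partner of NF-κB and AP-1 and a standard readout of receptor activity. Tsc22d3 was 31.4 ± 5.03 CPM at 24 h in inducible lines, against 26.1 ± 3.54 CPM at 0 h (SD, n = 3 each), and 28.5 ± 0.209 CPM at 24 h in negative lines, against 25.2 ± 0.148 CPM at 0 h (SD, n = 2 each). Within each line it was higher at 24 h, by ratios of 1.12 to 1.23, while the ranges over lines overlapped because A217 stood high at every time. The log2 change at 24 h, 0.22 ± 0.09, was not called (adjusted p = 0.124) without the block and was called with it (adjusted p = 0.000419). At 4 h it was -0.03 ± 0.09 (adjusted p = 0.98).

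Klf9 (ENSMUSG00000033863.2, chromosome 19, 23141226 to 23168134, plus strand) encodes a Krüppel-like repressor that is among the fast targets of the receptor in several tissues. The 0 h libraries held 11.1 to 13.6 CPM, the 4 h libraries 12.5 to 16.0 CPM and the 24 h libraries 12.5 to 15.2 CPM, so the ranges overlapped. Klf9 was above 0 h at both later times in all 5 lines, by ratios of 1.11 to 1.31 at 24 h and 1.03 to 1.28 at 4 h. Its log2 change at 24 h was 0.24 ± 0.08, with an adjusted p of 0.0602 and of 0.00747 with the block; at 4 h it was 0.17 ± 0.08 (adjusted p = 0.456, and 0.115 with the block). Klf9 is listed with 1 transcript, so its estimated counts involve no division between isoforms.

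Zbtb16 (ENSMUSG00000066687.5, chromosome 9, 48654297 to 48836222, minus strand) encodes PLZF, a zinc finger repressor. It held 15, 13 and 23 estimated counts per library at 24 h in inducible lines, against 17, 2 and 6 at 0 h, and 9 and 14 at 24 h in negative lines, against 4 and 3 at 0 h. Summed over all lines this was 32 counts at 0 h, 27 at 4 h and 74 at 24 h. Zbtb16 was higher at 24 h than at 0 h in 4 of 5 lines, with A217 the exception, and higher than at 4 h in 5 of 5. The log2 change at 24 h of 1.45 ± 0.55 was not called (adjusted p = 0.0855) and was called with the block (adjusted p = 0.0284) and without the A217 library at 0 h (adjusted p = 0.027). At this depth the size of the change is poorly fixed.

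Cebpd (ENSMUSG00000071637.5, chromosome 16, 15887286 to 15891031, plus strand) encodes C/EBPδ, a bZIP activator of acute-phase genes. Its span overlaps Spidr on the opposite strand, and as the use of strand in counting is not given, reads of the overlap cannot be assigned with certainty. Cebpd was the member whose direction at 24 h was downward in all 5 lines, with 7.93 ± 1.05 CPM at 24 h in inducible lines against 8.60 ± 1.06 CPM at 0 h, and 8.44 ± 1.04 CPM at 24 h in negative lines against 9.99 ± 0.0491 CPM at 0 h. The log2 change of -0.18 ± 0.12 was not called in either fit (adjusted p = 0.338, and 0.107 with the block).

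Sgk1, Dusp1 and Errfi1 encode signalling proteins, and Sgk1 and Dusp1 were the 2 genes of the set called at 24 h without the block. Sgk1 (ENSMUSG00000019970.15, chromosome 10, 21882184 to 21999903, plus strand) encodes a kinase of the AGC family that raises sodium channel density at the epithelial surface and restrains FOXO factors. In inducible lines Sgk1 had 23.9, 30.4 and 42.2 CPM at 24 h, against 10.8, 10.2 and 17.6 CPM at 0 h, in A217, A220 and A225. In negative lines it had 32.0 and 30.7 CPM at 24 h, against 12.5 and 11.9 CPM at 0 h, in A218 and A223. At 4 h the levels were 11.4, 12.0 and 13.6 CPM in inducible and 11.6 and 9.85 CPM in negative lines, inside or near the 0 h range. Every 24 h library exceeded every 0 h and every 4 h library, and the 24 h to 0 h ratio was 2.21 to 2.99 within lines, so the change appeared between 4 and 24 h of doxycycline in both kinds of line.

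In the fit across all features Sgk1 rose at 24 h by 1.32 ± 0.21 on the log2 scale in inducible lines (adjusted p = 0.00542) and by 1.36 ± 0.26 in negative lines (adjusted p = 0.0147). Averaged over both, the rise was 1.34 ± 0.17 (adjusted p = 0.000343), and from 4 to 24 h it was 1.46 ± 0.17 (adjusted p = 0.000276). The 4 h change was -0.12 ± 0.17 over both genotypes (adjusted p = 0.889). The rise in inducible lines was not called when only the groups compared were fitted (adjusted p = 0.0927), and that in negative lines was not called without any 1 of its own 4 libraries, with adjusted p of 0.12 and 0.0903 without A218 at 0 h and 24 h and of 0.14 and 0.0977 without A223 at 0 h and 24 h. Among the 12 named partners and substrates of the kinase 1 was called at 24 h, where 18.7% of all features were called, and with the block 2 were called higher and 2 lower, against 36.1%. The 1 was Foxo3, a transcription factor that SGK1 phosphorylates, which fell to 67.7 ± 4.51 CPM at 24 h, against 81.8 ± 4.57 CPM at 0 h (SD, n = 5 lines each; log2 change -0.28, adjusted p = 0.00494). Nedd4l, the ubiquitin ligase through which SGK1 acts on sodium channels, was 137 ± 5.21 CPM at 24 h, 122 ± 6.18 CPM at 4 h and 133 ± 3.61 CPM at 0 h. Its rise from 4 to 24 h was called in 8 of 8 alternative fits, with log2 changes of 0.15 to 0.17. Between the same times Foxo3 was called lower in 8 of 8, with log2 changes of -0.27 to -0.25. In the fit without the block 19.5% of all features were called between these times.

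Dusp1 (ENSMUSG00000024190.7, chromosome 17, 26505590 to 26562128, minus strand) encodes MKP-1, a nuclear phosphatase that switches off p38, JNK and ERK and mediates part of the anti-inflammatory action of glucocorticoids. In inducible lines Dusp1 had 18.5, 27.1 and 32.5 CPM at 24 h, against 12.6, 17.7 and 18.8 CPM at 0 h, in A217, A220 and A225. In negative lines it had 27.1 and 28.5 CPM at 24 h, against 18.4 and 16.3 CPM at 0 h. All 5 lines were higher, by ratios of 1.47 to 1.75, and the ranges met only because A217 was low at each time. The 4 h libraries, with 11.5, 15.9 and 17.6 CPM in inducible and 14.6 and 12.4 CPM in negative lines, were below 0 h in all 5 lines in CPM and in 4 of 5 in TPM.

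Dusp1 rose at 24 h by a log2 value of 0.67 ± 0.16 over both genotypes (adjusted p = 0.0138), and from 4 to 24 h by 0.92 ± 0.16 (adjusted p = 0.00269). Within a genotype the rise was not called, with 0.67 ± 0.21 in inducible lines (adjusted p = 0.0779) and 0.68 ± 0.25 in negative lines (adjusted p = 0.146), and was called in both with the block (adjusted p = 2.76e-05 and 9.67e-05). The 4 h change of -0.25 ± 0.16 had an adjusted p of 0.645, and of 0.0137 with the block. The rise over both genotypes was not called without the A223 library at 0 h (adjusted p = 0.0665) or at 24 h (adjusted p = 0.0505).

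Errfi1 (ENSMUSG00000028967.10, chromosome 4, 150853919 to 150868892, plus strand) encodes MIG6, which binds and inhibits the EGF receptor kinase and is induced by its signal. Like Dusp1 it was lower at 4 h and higher at 24 h than at 0 h in all 5 lines, by a smaller amount. In inducible lines Errfi1 had 130, 158 and 171 CPM at 0 h, 123, 146 and 143 CPM at 4 h and 149, 166 and 184 CPM at 24 h, in A217, A220 and A225. In negative lines it had 153 and 150 CPM at 0 h, 141 and 131 CPM at 4 h and 182 and 165 CPM at 24 h, in A218 and A223. The 24 h libraries lay above all 4 h libraries, and both overlapped the 0 h range. The log2 change was -0.16 ± 0.08 at 4 h (adjusted p = 0.491, and 0.0123 with the block) and 0.16 ± 0.08 at 24 h (adjusted p = 0.194, and 0.00219 with the block). From 4 to 24 h Errfi1 rose by 0.31 ± 0.08 (adjusted p = 0.017), a call lost without A218 at 24 h (adjusted p = 0.076) or A223 at 4 h (adjusted p = 0.0833).

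**Figure D2:**
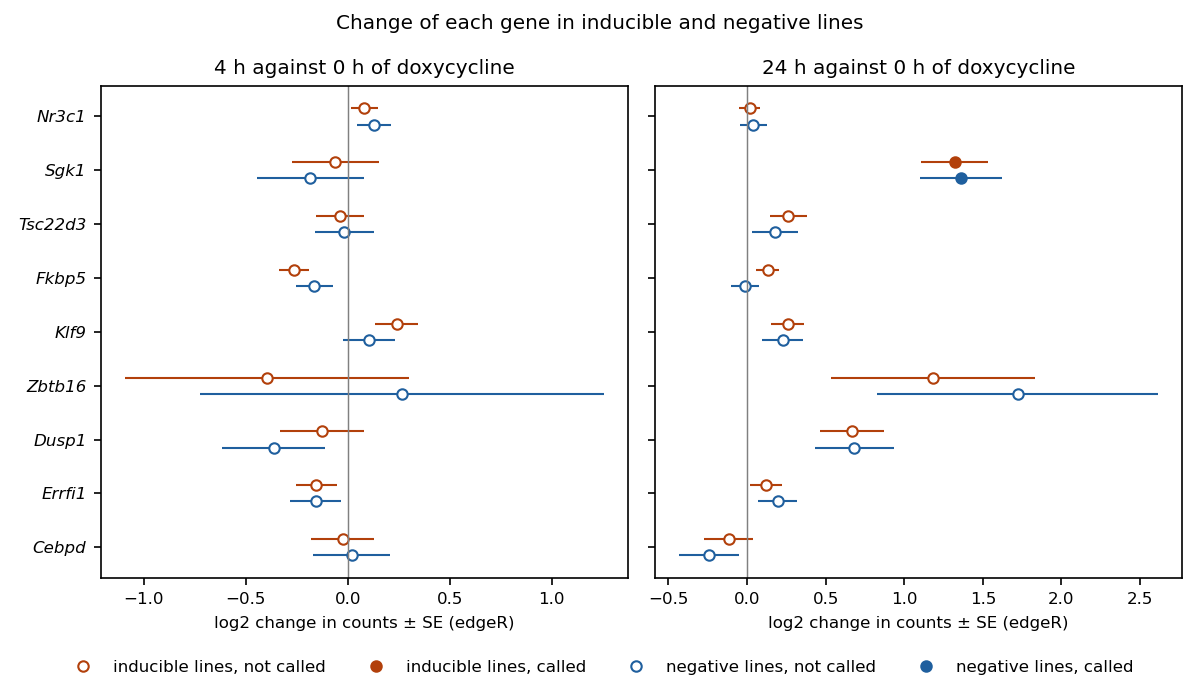
Log2 change of each gene with its SE (x axis; edgeR, without the block) at 4 h (left) and 24 h (right) of doxycycline against 0 h, with inducible lines above negative lines in each row; filled points have an adjusted p below 0.05. Sgk1 at 24 h is filled in both genotypes at 1.32 and 1.36, and the estimates of the genotypes lie within their errors of each other for most genes.

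As a set, 2 of the 9 genes, Sgk1 and Dusp1, were called at 24 h over both genotypes, both higher, where 18.7% of all 16462 tested features were called and 10.9% were called higher. The members' median log2 change was 0.22, with 8 of 9 above 0, against a median of -0.0004 over all features. With the line as a block 6 of 9 were called, all higher (Sgk1, Dusp1, Tsc22d3, Klf9, Zbtb16 and Errfi1), where 36.1% of features were called and 20.7% called higher. Within inducible lines 1 of 9 was called at 24 h, against 4.93% of features, and 5 of 9 with the block, against 24.2%. Within negative lines 1 of 9 was called, against 3.80%, and 4 of 9 with the block, against 22.5%.

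At 4 h 0 of 9 were called over both genotypes by edgeR, where 0.911% of features were called, with 1 of 9 at an unadjusted p below 0.05 and 1 of 9 called by DESeq2, in both cases Fkbp5. With the block 3 of 9 were called, all lower (Fkbp5, Dusp1 and Errfi1), where 8.67% of features were called, 3.75% higher and 4.92% lower. Of the 12 duct markers 11 also lay below 0 at 4 h, as given above, and their part in these counts was not tested. Within a genotype edgeR called 0 of 9 in inducible lines (2 at an unadjusted p below 0.05, 0 by DESeq2), against 0.298% of features, and 0 of 9 in negative lines (0 and 0), against 0.121%. With the block 1 of 9 was called in each, Fkbp5 in inducible lines, against 3.05%, and Dusp1 in negative lines, against 2.04%. From 4 to 24 h 4 of 9 were called, all higher, against 19.5% of features and 11.3% called higher, and 6 of 9 with the block, all higher, against 37.0% and 21.2% called higher. All comparisons with 0 h share the 0 h libraries, so the 4 h and 24 h results are not independent of each other.

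The ability to make CA19-9 was not accompanied by a detectable difference in these genes. For the 24 h response, inducible minus negative, the difference was -0.04 ± 0.33 (SE, log2) for Sgk1, -0.01 ± 0.32 for Dusp1, 0.15 ± 0.12 for Fkbp5, -0.08 ± 0.16 for Errfi1, 0.09 ± 0.19 for Tsc22d3, 0.03 ± 0.17 for Klf9, -0.02 ± 0.11 for Nr3c1, 0.13 ± 0.24 for Cebpd and -0.54 ± 1.08 for Zbtb16. By edgeR 0 of 9 differences of responses were called at 4 h or at 24 h, where 0.0121% of features were called at each time; at an unadjusted p below 0.05 the count was 0 at both, and DESeq2 also called 0. With the block it stayed 0, against 0.0182% of features at 4 h and 0.0243% at 24 h, with a smallest adjusted p of 0.991 at 4 h and of 0.716 at 24 h for Fkbp5. The errors for Sgk1 and Dusp1 are wide, so the responses are not shown to be alike.

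Inducible and negative lines were also set against each other at each time. Of the 9 genes edgeR called 0 at 0 h, 4 h and 24 h, where 0%, 0.0121% and 0.0121% of features were called. At an unadjusted p below 0.05 the counts were 0, 0 and 1, and DESeq2 and limma with the line as a random block called 0 at each time. The 1 gene was Fkbp5 at 24 h, with 111 ± 11.7 CPM in inducible lines (SD, n = 3) and 97.3 ± 4.57 CPM in negative lines (SD, n = 2), a log2 difference of 0.20 ± 0.08 (unadjusted p = 0.0339, edgeR adjusted p = 0.856).

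Within the genes, the division of counts between transcripts moved in the same direction in every line for 4 of them; kallisto estimates this division, so the shares are described and not tested. Sgk1-201 held a median of 82.6% of Sgk1 counts, Sgk1-202, whose promoter holds the strict element, 9.32%, and Sgk1-206 7.63%. The share of Sgk1-202 was lower at 24 h than at 0 h in 4 of 5 lines, with medians of 5.67% at 24 h and 9.81% at 0 h. Its ranges overlapped, with 5.06 to 9.59% at 24 h and 7.02 to 11.0% at 0 h. The lower share did not mean fewer counts in most lines. In A217, A220 and A225 Sgk1-202 had 61.0, 136 and 118 estimated counts at 24 h, against 63.0, 35.8 and 97.9 at 0 h. In A218 and A223 it had 84.6 and 135, against 63.5 and 64.7. At 4 h the share of Sgk1-202 ran from 2.78 to 22.8%, on 16.0 to 117 estimated counts per library. The share of Sgk1-206 was higher at 24 h than at 0 h in 5 of 5 lines, with medians of 9.25% at 24 h and 7.25% at 0 h. Most of the added Sgk1 counts at 24 h were thus assigned to Sgk1-201, which had 944 to 1760 estimated counts per library at 24 h, against 413 to 857 at 0 h.

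For Errfi1, the share of Errfi1-202, a coding transcript with an upstream first exon, was higher at 4 h in 5 of 5 lines, when the gene's total was low. It was 16.9%, 11.3% and 12.8% at 4 h in inducible lines, against 5.98%, 8.89% and 11.0% at 0 h, and 19.4% and 16.3% at 4 h in negative lines, against 12.9% and 9.75% at 0 h. At 24 h it was 4.01 to 9.89% over all lines and below the 4 h share of the same line in 5 of 5. The dip of Errfi1 at 4 h was therefore assigned to Errfi1-201, with 5320 to 7240 counts at 4 h against 6380 to 8940 at 0 h, while Errfi1-202 had 814 to 1350 at 4 h against 410 to 1120 at 0 h.

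In Dusp1 the coding transcript Dusp1-202 held 65.3 to 75.7% at 4 h, against 71.8 to 82.1% at 0 h, and was lower in 5 of 5 lines. At 24 h it held 71.1 to 85.7% and was higher than at 4 h in 5 of 5, as the retained-intron transcripts Dusp1-203 and Dusp1-204 took smaller shares in 5 of 5 lines. For Tsc22d3 the short coding transcript Tsc22d3-201 held 62.5 to 73.3% at 24 h, against 56.9 to 62.7% at 0 h, and was higher in 5 of 5 lines at both later times. The long coding transcript Tsc22d3-203 held 14.7 to 21.4% at 24 h, against 15.3 to 23.0% at 0 h, and was lower in 5 of 5.

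**Figure D3:**
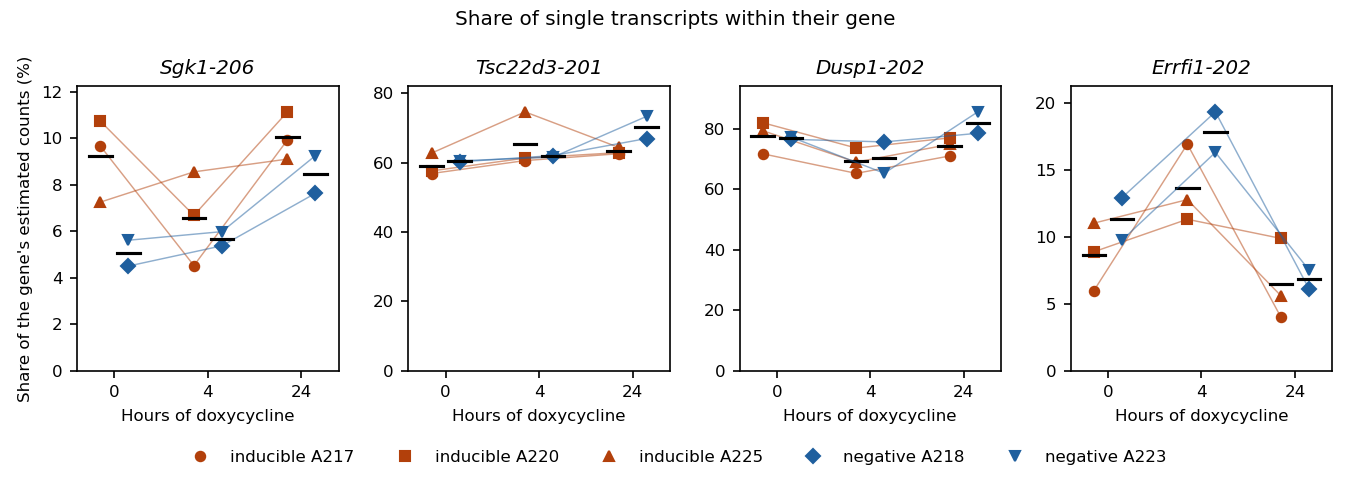
Share of a gene's estimated counts held by Sgk1-206, Tsc22d3-201, Dusp1-202 and Errfi1-202 (y axis in percent, from 0) against hours of doxycycline, inducible lines left and negative lines right at each time, with black bars for group means. The share of Errfi1-202 peaks at 4 h in all 5 lines, reaching 19.4% in A218, and that of Dusp1-202 is lowest at 4 h in all 5.

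Correlations between genes of the set differed widely across the 15 libraries. On log2(CPM + 1), Dusp1 and Sgk1 had a Pearson r of 0.914 and Dusp1 and Errfi1 of 0.921. Sgk1 and Errfi1 had 0.787, and Fkbp5 and Tsc22d3 had 0.614. Lower values were 0.447 for Sgk1 and Tsc22d3, 0.439 for Sgk1 and Fkbp5 and 0.06 for Sgk1 and Nr3c1. Errfi1 had 0.008 with Tsc22d3 and -0.556 with Cebpd. The 15 points share 5 lines and 3 times, so r mixes standing differences between lines with changes over time. A217 had the highest Tsc22d3 and the lowest Errfi1 level at each time. Within lines, Sgk1, Dusp1, Errfi1, Tsc22d3, Fkbp5 and Zbtb16 were higher at 24 h than at 4 h in 5 of 5. Klf9 was higher in 3 of 5 and Cebpd in 1 of 5, and Nr3c1 was lower in 5 of 5. The genes most like Sgk1 among those with a mean of at least 1 CPM were Pitpna (r = 0.975), Arf2 (0.974) and Abcc4 (0.971). Those most like Dusp1 were Spns2 (0.988), Wnt7b (0.979) and Ctsl (0.976), those most like Errfi1 were Amotl2 (0.957), Ccn1 (0.937) and Pard6b (0.932), and those most like Fkbp5 were Fam149a (0.845), Cdc42ep5 (0.845) and Klf13 (0.844). Amotl2, Ccn1 and Pard6b had means of 260, 124 and 87.5 CPM at 0 h and of 230, 109 and 73.7 CPM at 4 h. At 24 h the means were 308, 148 and 90.2 CPM. Amotl2 and Ccn1 are well known as targets of YAP, and a part of YAP in these changes was not tested.

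Further genes known to respond to glucocorticoids were more often higher than lower at 24 h. Of 29 listed genes 26 were tested (Scnn1g, Tat and G6pc were too low), and at 24 h over both genotypes 9 were called higher and 1 lower, with a median log2 change of 0.31 against -0.0004 over all features; 10.9% of all features were called higher and 7.83% lower. With the block the counts were 17 and 2, against 20.7% and 15.4%. Angptl4, a secreted inhibitor of lipoprotein lipase, rose to 36.5 ± 11.4 CPM at 24 h, against 7.01 ± 2.23 CPM at 0 h (SD, n = 5 lines each; log2 change 2.39, adjusted p = 0.000583). The metallothioneins rose together, Mt2 to 64.1 ± 13.5 CPM at 24 h, against 30.7 ± 5.02 CPM at 0 h (adjusted p = 0.0019), and Mt1 to 252 ± 35.2 CPM, against 154 ± 17.3 CPM (adjusted p = 0.00205). At 4 h both means were below 0 h, with 20.3 ± 4.6 CPM for Mt2 and 127 ± 18.9 CPM for Mt1. As close paralogs they may share reads. Bcl6, a transcriptional repressor, had 26.0 ± 1.37 CPM at 24 h and 18.9 ± 2.16 CPM at 0 h (adjusted p = 0.00124). At 4 h 2 of 26 were called, both higher, against 0.528% of features called higher and 0.383% lower: Angptl4 with 21.0 ± 6.61 CPM (adjusted p = 0.0367) and Bcl6 with 25.8 ± 0.883 CPM (adjusted p = 0.00906). With the block the balance at 4 h was the other way, with 4 called higher and 7 lower, against 3.75% and 4.92% of features. The 4 h call of Angptl4 was lost in 10 of the 15 fits that leave out 1 library, with adjusted p of 0.0519 to 0.189: without A217 or A225 at 0 h, A220 or A225 at 4 h, or any 1 of the 6 libraries of A218 and A223, and that of Bcl6 without A223 at 0 h (adjusted p = 0.093) or at 4 h (adjusted p = 0.0506).

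Genes that glucocorticoids restrain were called higher, and none lower, against 0 h. Of 14 listed inflammatory genes 9 were tested, and at 24 h 5 were called higher and 0 lower, with a median log2 change of 0.95 and 9 of 9 above 0, where 10.9% of all features were called higher and 7.83% lower. With the block 8 were called higher and 0 lower, against 20.7% and 15.4%. Between 4 and 24 h the block fit called 8 higher and 1 lower. Of all 16462 tested features that fit called 37.0%, with 21.2% higher and 2612 features lower. The 1 lower gene was Ptgs2, which encodes the cyclooxygenase COX-2 (log2 change -0.17, adjusted p = 0.0386). Icam1, an adhesion molecule for leukocytes, rose to 74.1 ± 5.63 CPM at 24 h, against 51.9 ± 3.84 CPM at 0 h (log2 change 0.55, adjusted p = 1.48e-05). The cytokine Il1a rose to 1.80 ± 0.389 CPM, against 0.632 ± 0.16 CPM (adjusted p = 0.000207), and the growth factor Csf2 to 3.54 ± 0.41 CPM, against 1.23 ± 0.139 CPM (adjusted p = 0.000862). Ccl20, a chemokine for dendritic cells and lymphocytes, had 58.5 ± 16.2 CPM at 24 h and 30.8 ± 7.1 CPM at 0 h (adjusted p = 0.0162). Without A218 at 24 h or A223 at 0 h 3 were called, with Ccl20 at an adjusted p of 0.0828 and 0.085. At 4 h 1 of 9 was called, against 0.911% of features, Il1a with 1.34 ± 0.202 CPM (adjusted p = 0.0102), a call lost without A218 at 0 h (adjusted p = 0.0911) or A223 at 0 h (0.063) or 4 h (0.058).

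For the machinery that folds and assists the receptor the count turned on the block. Of 14 receptor chaperones 0 were called higher and 1 lower at 24 h, where 18.7% of all features were called, the cyclophilin Ppid with 90.8 ± 8.45 CPM at 24 h and 106 ± 6.44 CPM at 0 h (log2 change -0.23, adjusted p = 0.0379). The call of Ppid was lost in 7 of the 15 fits that leave out 1 library, with adjusted p of 0.0522 to 0.127: without A217 or A225 at 0 h, A220 at 24 h, or A218 or A223 at 0 h or 24 h. Hsp90ab1, the constitutive HSP90, had 2130 ± 38 CPM at 24 h and 2210 ± 62.4 CPM at 0 h. Of 13 coregulators 1 was called, the lysine methyltransferase Ehmt1, lower with 84.4 ± 2.49 CPM at 24 h and 96.2 ± 2.17 CPM at 0 h (log2 change -0.19, adjusted p = 0.00133). With the block 4 of 14 chaperones were called higher and 3 lower, and of 13 coregulators 2 in each direction, where 36.1% of features were called, 20.7% higher and 15.4% lower.

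Genes of steroid metabolism and other steroid receptors were called in both directions, 3 higher and 2 lower of 6 tested at 24 h, where 10.9% of all features were called higher and 7.83% lower. H6pd, which regenerates the cofactor for 11β-HSD1, rose to 211 ± 11.1 CPM at 24 h, against 163 ± 9.33 CPM at 0 h (adjusted p = 0.000681). Srd5a1, a steroid 5α-reductase, rose to 34.1 ± 1.57 CPM, against 28.2 ± 1.01 CPM (adjusted p = 0.00183), and Nr3c2, the mineralocorticoid receptor, which also binds corticosterone, to 30.8 ± 2.23 CPM, against 24.4 ± 1.54 CPM (adjusted p = 0.00342). Abcb1b, a P-glycoprotein that exports steroids among other compounds, fell to 30.5 ± 3.51 CPM, against 43.2 ± 1.13 CPM (adjusted p = 0.000497); its paralog Abcb1a was called lower as well (adjusted p = 0.00869), but not with an offset for effective length (adjusted p = 0.118). Hsd11b1, which makes corticosterone from its inactive form and is the partner of H6pd, had at most 0.0671 CPM and was not tested. Hsd11b2, which inactivates corticosterone, averaged 0.0908 CPM at 24 h and 0.144 CPM at 0 h.

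**Figure D4:**
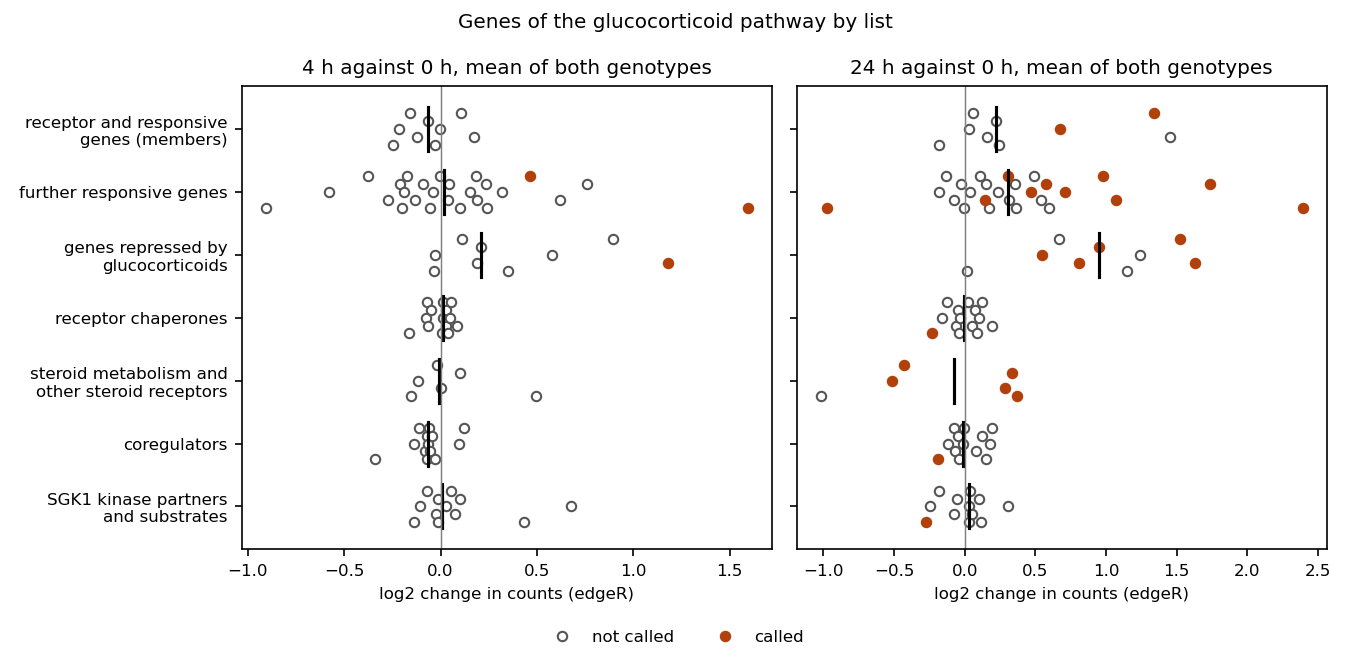
Log2 change of every tested gene by list (x axis; edgeR, mean of both genotypes) at 4 h (left) and 24 h (right) of doxycycline against 0 h; filled points have an adjusted p below 0.05 and black bars are medians. At 24 h the further responsive genes and the genes repressed by glucocorticoids have medians of 0.31 and 0.95, while chaperones and coregulators lie around 0.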

How the data were processed

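RNA was extracted from organoids dissolved in Trizol, ribosomal RNA was removed with Ribo-zero, and TruSeq libraries were sequenced from both ends, per the labels' protocols. Per the submitters' processing notes, kallisto 0.43.1 and GRCm38 were used, alongside DESeq2 1.18.1 and DESeq. The authors deposited TPM values and unnormalised estimated counts for each transcript, per the file headers; lengths in the files served 1 alternative. The strand setting is not given in these sources.

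Estimated counts were summed per gene with GENCODE M21 (identifiers matched without version; 1295 of 109304 transcripts, with 0.556 to 0.593% of counts, had no match) and rounded. This left 34554 features. edgeR 4.0.16 (R 4.3.3) fitted a mean for each of 6 groups to all 15 libraries, with TMM scaling (factors 0.966 to 1.023) and its default filter, which kept 16462 features and all 9 members. The quasi-likelihood F test carried Benjamini-Hochberg adjustment across the 16462 features, separately per comparison, with calls below 0.05. CPM used the TMM-scaled totals. The 9 residual degrees of freedom and a biological coefficient of variation of 0.157 set the precision; reads carry no molecular identifiers. The fit was tested on simulated counts. No 2 libraries of a group agreed within sampling noise.

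Libraries of 1 line at different times form pairs, as the labels name the line; deviations of the same line from its group means correlated at 0.476 to 0.734. A replicate block for the line lowered the coefficient to 0.058 and left 6 residual degrees of freedom. Each line has 1 genotype, so for genotype differences the block was random, in limma-voom (limma 3.58.1) (correlation 0.417). Also tried were median-of-ratios scaling, DESeq2 1.42.0, no filter, a filter of 1 CPM in 3 libraries, only the groups compared, an effective-length offset, TPM, and leaving out each library, which leaves some negative groups with 1 library that is assumed to vary like the rest.

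The members, the 6 gene lists and the marker lists come from textbook knowledge and were chosen with earlier results of these data known. Of each list up to 4 called genes with the smallest adjusted p are named; Nedd4l, Hsp90ab1, Abcb1a, Ptgs2, Hsd11b1 and Hsd11b2 are named in addition, chosen after their values were seen. The 24 h to 4 h comparison, and the alternatives for the lists, were added after seeing the data. Genes most alike were the 3 with the highest r. Promoters are from RefSeq.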

Additional observations from a re-analysis of the deposited data

How the results depend on the processing

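No direction of a called gene reversed under any alternative run. The replicate block (the line as a fixed term) moved the number of members called most, to 1 of 9 (4 h) and 5 (24 h) in inducible lines, to 1 (4 h) and 4 (24 h) in negative lines, and to 3 at 4 h and 6 at 24 h over both genotypes; it changed no call of a difference between genotypes in the responses. A random block in limma-voom gave 1 and 5 in inducible lines at 4 h and 24 h, 2 in negative lines at 24 h, and 1 and 6 over both genotypes at 4 h and 24 h. Of 16462 features it called 273 and 3399 in inducible lines, 3135 in negative lines at 24 h, and 1033 and 5585 over both genotypes. DESeq2 called 2 at 24 h in inducible lines and 1 at 4 h over both genotypes, where it called 1788 and 550 of 16462 features. Fits of only the groups compared called 0 in inducible and 2 in negative lines at 24 h. These fits called 65 of 14995 and 1734 of 15219 features. Leaving out 1 library gave 1 to 2 members at 24 h in inducible lines, 0 to 1 in negative lines, 1 to 3 at 24 h and 0 to 1 at 4 h over both genotypes, and 3 to 5 between 4 and 24 h. The second inducible call was Dusp1 without A217 at 24 h (adjusted p = 0.0126), and the 4 h call was Fkbp5 without A225 at 24 h (adjusted p = 0.0418). The block and fewer samples change the estimated spread by construction, and other causes were not tested. Zbtb16, with 2 to 23 counts per library, is limited by depth. Leave-one-out fits moved lists at 24 h too: coregulators to 2 called without A217 or A220 at 24 h, and partners of the SGK1 kinase to 3 without A217 at 24 h. Over both genotypes at 24 h these fits called 3738 of 16433 features without A217 and 2334 of 16424 without A220.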
